A study of Mus musculus with 4 samples.

Results

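The transcripts described here are made inside mitochondria from the mitochondrial chromosome. They were chosen as the rows of the deposited RNA table whose Ensembl identifier belongs to mt-Rnr1, mt-Rnr2, mt-Nd1, mt-Nd2, mt-Nd4, mt-Nd5, mt-Co1, mt-Co3, mt-Cytb or mt-Atp6. That gave 10 genes of 14533 in the table, namely 2 ribosomal RNAs (rRNAs) and 8 messenger RNAs (mRNAs). All 10 passed the filter on low values used below, as did 13005 genes in all. The annotation holds 37 genes on this chromosome, and 19 of them had a row in the table.

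The cells were mouse embryonic stem cells (ESCs), kept for more than 20 days either with serum and LIF (serum ESCs) or in serum-free Ndiff 227 medium with LIF, the MEK inhibitor PD0325901 and the GSK3 inhibitor CHIR99021 (2i ESCs), and their RNA was sequenced. Each group had 2 libraries, which the labels number as replicates 1 and 2. The sample labels place the sorted cells in late G1-phase, whereas the series description says early G1-phase, and the labels name no cell line. Nuclear and mitochondrial rRNA are both targets of the depletion kit used on the total RNA, and the remaining fragments were primed at random, so that transcripts without a poly(A) tail can be read. Libraries held 18939401 to 26570098 reads in the table. Of the ESC markers, 8 of 8 were present, with a summed normalized count of 57185 to 79797 in serum and 68646 to 90902 in 2i. For Pou5f1, the transcription factor Oct4, the range was 8452 to 20050. Of the 7 primitive endoderm markers, 4 had a row, with sums of 72.0 and 109 in serum against 332 and 256.1 in 2i. Of the 6 fibroblast markers, 2 had a row, with sums of 193 to 230 in serum and 58.2 to 199 in 2i. The part of these cells in the results below was not tested. One library, 2i replicate 2, stood apart in the transcripts described here, and values that rest on it are also given without it.

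Mitochondrial DNA is transcribed from promoters in its control region into long transcripts that cover nearly a whole strand. Transfer RNAs lie between most of the genes, and their excision releases the separate mRNAs and rRNAs. mt-Rnr1 and mt-Rnr2 are the 12S and 16S rRNAs of the small and large subunit of the mitochondrial ribosome. The mRNAs encode membrane subunits of the respiratory chain: mt-Nd1, mt-Nd2, mt-Nd4 and mt-Nd5 belong to complex I (NADH dehydrogenase), mt-Cytb to complex III, mt-Co1 and mt-Co3 to complex IV (cytochrome c oxidase) and mt-Atp6 to complex V (ATP synthase). The same chromosome also encodes mt-Nd3, mt-Nd4l, mt-Nd6, mt-Co2 and mt-Atp8, and the remaining subunits of these complexes are encoded in the nucleus. Human and mouse mitochondrial rRNAs are normally far more abundant than the mRNAs. In bulk RNA, fewer cells of a type and less RNA per cell cannot be told apart.

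All 10 genes lie on the plus strand of the mitochondrial chromosome in build mm9. mt-Rnr1 spans chrM:70-1024 and mt-Rnr2 spans chrM:1094-2675. Both are single-exon rRNA genes, and their opening 43 bases, the length of a read in this study, are shown because these transcripts separated the libraries most.
mt-Rnr1: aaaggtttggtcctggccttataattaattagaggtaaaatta
mt-Rnr2: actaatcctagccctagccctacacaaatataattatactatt

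The mRNA genes follow as mt-Nd1 at chrM:2751-3707, mt-Nd2 at chrM:3914-4951, mt-Co1 at chrM:5328-6872, mt-Atp6 at chrM:7927-8607, mt-Co3 at chrM:8607-9390, mt-Nd4 at chrM:10167-11544, mt-Nd5 at chrM:11742-13565 and mt-Cytb at chrM:14145-15288. Their last 15 bases are shown because the mRNAs differ there: the letters of the stop codon that the DNA itself encodes are in capitals.
mt-Nd1: ccaccatacataTAG
mt-Nd2: caactaattaccTAG
mt-Co1: gtaaaagtaaaaTAA
mt-Atp6: catgataatacaTAA
mt-Co3: attgatgaggatctT
mt-Nd4: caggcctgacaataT
mt-Nd5: attaatctcgagTAA
mt-Cytb: taaaattatatccaT
For mt-Co3, mt-Nd4 and mt-Cytb only the T is encoded, and the stop codon is completed by the poly(A) tail. GC content was 35.4% to 35.8% for the rRNA genes and 35.6% to 39.9% for the mRNA genes, of which mt-Co1 had the highest.

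Part of this chromosome has near-identical copies in the nuclear genome, which bears on how reads could be assigned. Exact 43-base words of the mitochondrial chromosome were found in 23 nuclear regions. The longest lies on the minus strand at chr1:24618374-24623023 (4650 bases). Over mitochondrial positions 6394 to 9825, which include all of mt-Atp6 and mt-Co3 and the last 479 bases of mt-Co1, 3431 of 3432 bases are identical to it. A read-length window from the start of mt-Atp6 is therefore the same in both places, at chrM:7927-7969 and at chr1:24621448-24621490.
mt-Atp6, mitochondrial: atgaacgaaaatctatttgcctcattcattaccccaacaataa
mt-Atp6, chromosome 1: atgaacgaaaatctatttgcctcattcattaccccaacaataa
The single difference, T9461C (mitochondrial base, mitochondrial position counted from 1, nuclear base), lies in mt-Nd3, which encodes another complex I subunit. It is shown in capitals in the windows chrM:9440-9482 and chr1:24619935-24619977.
mt-Nd3, mitochondrial: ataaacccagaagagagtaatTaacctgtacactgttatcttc
mt-Nd3, chromosome 1: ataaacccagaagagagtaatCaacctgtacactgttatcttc
The share of a gene's 43-base words that also occur in the nuclear genome was 100% for mt-Atp6 and mt-Co3, 62.4% for mt-Nd4 and 55.1% for mt-Co1. It was 10.5% for mt-Nd5, 9.64% for mt-Nd2, 7.73% for mt-Rnr2 and 0.635% for mt-Cytb, and 0% for mt-Rnr1 and mt-Nd1. Values of genes with a large share are uncertain to the extent that reads were divided between copies.

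The rRNAs made up most of the mitochondrial reads in 3 of the 4 libraries and a small part of them in 2i replicate 2. Values are normalized counts, that is, read counts per gene divided by a scaling factor of the library. For mt-Rnr1 the normalized count was 208776 and 231460 in serum replicates 1 and 2, 509666 in 2i replicate 1 and 1763 in 2i replicate 2. mt-Rnr1 was thus highest in one 2i library and lowest in the other, with both serum libraries between them. For mt-Rnr2 it was 805078 and 664481 in serum, 1036754 in 2i replicate 1 and 13043 in 2i replicate 2, in the same order of groups. Between the 2i replicates mt-Rnr1 differed 289-fold and mt-Rnr2 79.5-fold, whereas the serum replicates differed by 0.15 and 0.28 on the log2 scale.

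**Figure D1:**
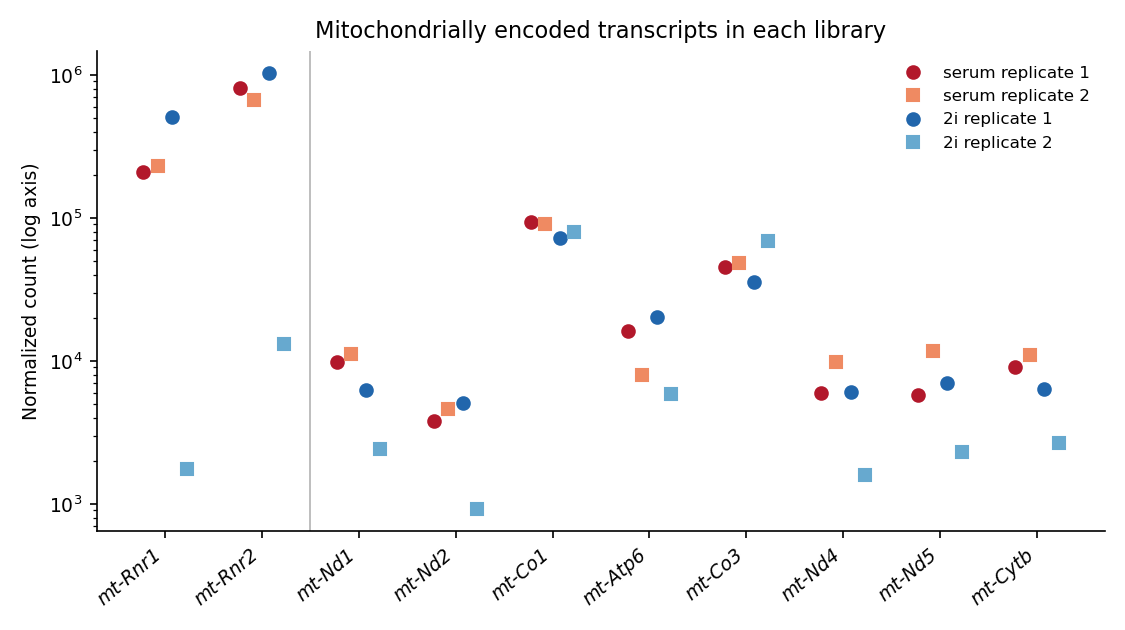
Normalized count of each of the 10 transcripts (log axis) in the 4 libraries, 1 point per library, with the rRNAs left of the grey line and the mRNAs in chromosome order to its right. In 2i replicate 2 (light blue squares) both rRNAs and 6 of the mRNAs are the lowest of the 4 libraries, while mt-Co3 is the highest and mt-Co1 lies between the other libraries.

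The rank of the rRNAs among all genes moved accordingly. mt-Rnr2 ranked between 1 and 5 and mt-Rnr1 between 6 and 9 in the serum libraries and in 2i replicate 1, counted from the highest normalized count. In 2i replicate 2, mt-Rnr2 ranked 152 and mt-Rnr1 ranked 1595. To count genes far below the other libraries, a value of 0 was set at 3 reads. In 2i replicate 2, 9 of 13005 genes (0.0692%) were then at least 50-fold below each of the other libraries. Both rRNAs were among them, 118-fold (mt-Rnr1) and 50.9-fold (mt-Rnr2) below the lowest of the others. The count depends on that setting, since a gene at 0 is otherwise lower without limit.

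As a share of all reads, the rRNAs took 3.81% (95% Wilson interval 3.81 to 3.82) and 4.87% (4.86 to 4.88) in serum replicates 1 and 2. They took 6.88% (6.87 to 6.89) in 2i replicate 1 and 0.0747% (0.0736 to 0.0759) in 2i replicate 2. The mRNAs together took 0.715% (0.712 to 0.719) and 1.06% (1.06 to 1.07) in serum, and 0.707% (0.703 to 0.710) and 0.826% (0.822 to 0.830) in 2i. These intervals cover counting error only. The gaps between libraries in the rRNA share were far wider than them, whereas the mRNA shares of serum replicate 1 and 2i replicate 1 differed by little more than counting error. The mRNA share in 2i replicate 2 lay within the range of the other libraries, whereas its rRNA share lay far below it.

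**Figure D2:**
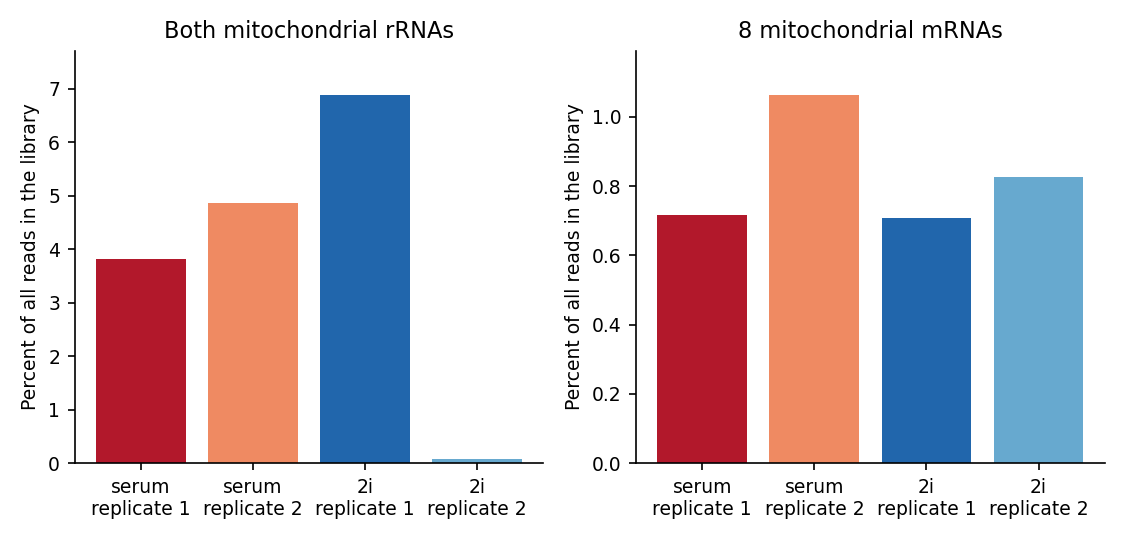
Percent of all reads in each library taken by both mitochondrial rRNAs (left) and by the 8 mitochondrial mRNAs (right), 1 bar per library, with different vertical scales. The rRNA bar of 2i replicate 2 is at 0.0747%, against 3.81% to 6.88% elsewhere, while the mRNA bars span 0.707% to 1.06%.

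Within a library, the ratio of rRNA to mRNA does not depend on the scaling of that library. The summed rRNA count was 5.33 and 4.58 times the summed mRNA count in serum replicates 1 and 2. In 2i replicate 1 the ratio was 9.73. In 2i replicate 2 it was 0.0905, so that there mRNA reads outnumbered rRNA reads 11.05-fold. These are ratios of reads left after rRNA depletion, and not of transcript numbers. Per kilobase of gene the ratios were 4.23 and 3.86 in serum against 8.08 and 0.0650 in 2i. The ratio differed 1.16-fold between the serum replicates and 108-fold between the 2i replicates. The log2 ratio averaged 2.30 ± 0.16 in serum and -0.09 ± 4.77 in 2i (SD, n = 2 each), and the spread of the 2i libraries was larger than the difference of 2.40 between the means. Without 2i replicate 2 that difference was -0.98, and without 2i replicate 1 it was 5.77. With 2 libraries against 2, an exact two-sided permutation test cannot give a p below 0.333, and none was run on this ratio.

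The 2 rRNAs did not keep a constant ratio to each other. mt-Rnr2 was 3.86 and 2.87 times mt-Rnr1 in serum, 2.03 times in 2i replicate 1 and 7.40 times in 2i replicate 2. The library with the least rRNA had the highest ratio, and the library with the most rRNA had the lowest.

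Other RNAs without a poly(A) tail followed the mitochondrial rRNAs only in part. From the highest to the lowest library, the sum of the nuclear rRNA rows had the same order as mt-Rnr2. The mitochondrial transfer RNA rows had that order in their sum too, whereas the 7SK and RNase_MRP rows did not. The 48 rows that the annotation gives as nuclear rRNA genes summed to 21908 and 58.3 in serum replicates 1 and 2 and to 231129 and 0 in 2i replicates 1 and 2. They were listed at 0 in 48 of 48 rows in 2i replicate 2, the library low in mitochondrial rRNA. In serum replicate 2, where mt-Rnr2 was the most abundant gene, they were also at 0 in 42 of 48 rows. Their sums were thus far higher in both replicate 1 libraries than in both replicate 2 libraries. mt-Rnr2, by contrast, differed by only 0.28 on the log2 scale between the serum replicates. The 7SK row, a nuclear RNA that restrains transcription elongation, was named after its values were seen. It stood at 737976 and 276544 in serum against 993727 and 855475 in 2i, and so was not low in 2i replicate 2. The RNase_MRP row, the RNA of an endoribonuclease that cuts ribosomal precursor RNA, was named in the same way and stood at 277308 and 177091 in serum against 495803 and 573119 in 2i. The part of rRNA depletion in these differences was not tested.

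The mRNAs as a sum varied far less than the rRNAs. Their summed normalized count was 190199 and 195718 in serum against 158884 and 163596 in 2i, a range of 1.23-fold over the 4 libraries. Both serum libraries lay above both 2i libraries, with means of 192959 ± 3902 in serum and 161240 ± 3332 in 2i (SD, n = 2 each). As a share of all reads in the library, by contrast, the groups overlapped. As a share of the reads of protein-coding genes they did not, at 1.53% and 1.39% in serum against 1.22% and 1.25% in 2i. Nuclear protein-coding genes took 46.0% and 75.1% of all reads in serum and 57.0% and 65.4% in 2i. The mRNA sum rests mainly on mt-Co1 and mt-Co3. Without these, the 2i replicates summed to 50974 and 15731, which is 3.24-fold apart, against 50583 and 56216 in serum.

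Among the complex I mRNAs, mt-Nd1, which encodes a subunit near the quinone site, had 9872 and 11186 normalized counts in serum against 6234 and 2405 in 2i. Its groups did not overlap, with serum higher. mt-Nd2 had 3797 and 4608 in serum against 5097 and 918 in 2i, with the 2i libraries on either side of serum. mt-Nd4, a subunit of the proton-pumping arm like mt-Nd2 and mt-Nd5, had 5946 and 9817 in serum against 6097 and 1590 in 2i. mt-Nd5 had 5744 and 11624 in serum against 6964 and 2285 in 2i. For mt-Nd4 and mt-Nd5 the groups overlapped, and serum replicate 2 was the highest library.

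mt-Cytb, the only mitochondrially encoded subunit of complex III, had 8976 and 11038 in serum against 6338 and 2673 in 2i. Its groups did not overlap, with serum higher. mt-Co1, the catalytic subunit of cytochrome c oxidase, had 94096 and 90861 in serum against 72201 and 79569 in 2i, also without overlap. mt-Co3, another core subunit of the same complex, had 45520 and 48641 in serum against 35709 and 68296 in 2i, so that the 2i libraries lay on either side of serum. mt-Atp6, part of the proton channel of ATP synthase, had 16248 and 7943 in serum against 20244 and 5860 in 2i, and its replicates differed widely in both groups.

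In 2i replicate 2 the mRNAs therefore fell into separate sets. mt-Nd1, mt-Nd2, mt-Nd4, mt-Nd5, mt-Cytb and mt-Atp6 were 2.37- to 5.55-fold lower there than in 2i replicate 1, with mt-Nd2 the farthest apart. mt-Co1 was 1.10-fold and mt-Co3 1.91-fold higher. Counting the rRNAs, 8 of the 10 transcripts were at least 2-fold higher in 2i replicate 1 than in 2i replicate 2, against 21.3% of all genes tested, and 0 of 10 were at least 2-fold lower, against 17.2%. Against each of the other libraries, 7 of 10 were at least 2-fold lower in 2i replicate 2, compared with 9.16% of all genes tested. Between the serum replicates 2 of 10, mt-Atp6 and mt-Nd5, were at least 2-fold apart, near the background of 24.6%. Of the mRNAs ending in an encoded T alone, mt-Nd4 and mt-Cytb were in the low set and mt-Co3 was not. The part of this property in the difference was not tested.

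**Figure D3:**
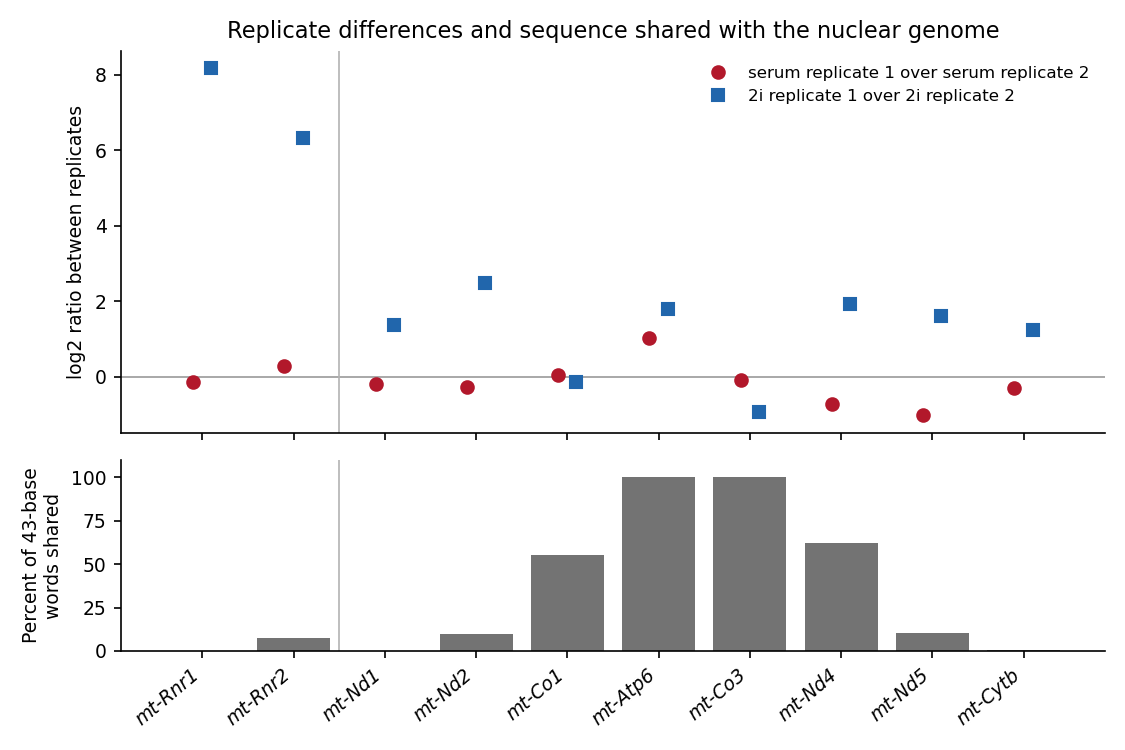
Upper panel: log2 ratio of replicate 1 over replicate 2 for each transcript in serum (red circles) and in 2i (blue squares); lower panel: percent of each gene's 43-base words that also occur in the nuclear genome. The 2i ratios reach 8.17 for mt-Rnr1 and 6.31 for mt-Rnr2 and lie below 0 for mt-Co1 and mt-Co3. The serum ratios stay between -1.02 and 1.03. In 2i, mt-Atp6 and mt-Co3, both fully shared with the nuclear genome, lie on opposite sides of 0. The part of shared reads in these ratios was not tested.

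The make-up of the mRNA reads changed in the same library. mt-Co1 and mt-Co3 together gave 73.4% and 71.3% of the mitochondrial mRNA reads in serum, 67.9% in 2i replicate 1 and 90.4% in 2i replicate 2. Most of the rise came with mt-Co3, which gave 23.9% and 24.9% in serum, 22.5% in 2i replicate 1 and 41.7% (95% Wilson interval 41.5 to 42.0) in 2i replicate 2. The share of mt-Co1 stayed between 45.4% and 49.5%. The complex I mRNAs gave 13.3% and 19.0% in serum, 15.4% in 2i replicate 1 and 4.40% in 2i replicate 2. Per kilobase, the mean level of mt-Co1 and mt-Co3 was 11.1 and 8.16 times that of the complex I mRNAs in serum, 9.38 times in 2i replicate 1 and 47.8 times in 2i replicate 2.

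**Figure D4:**
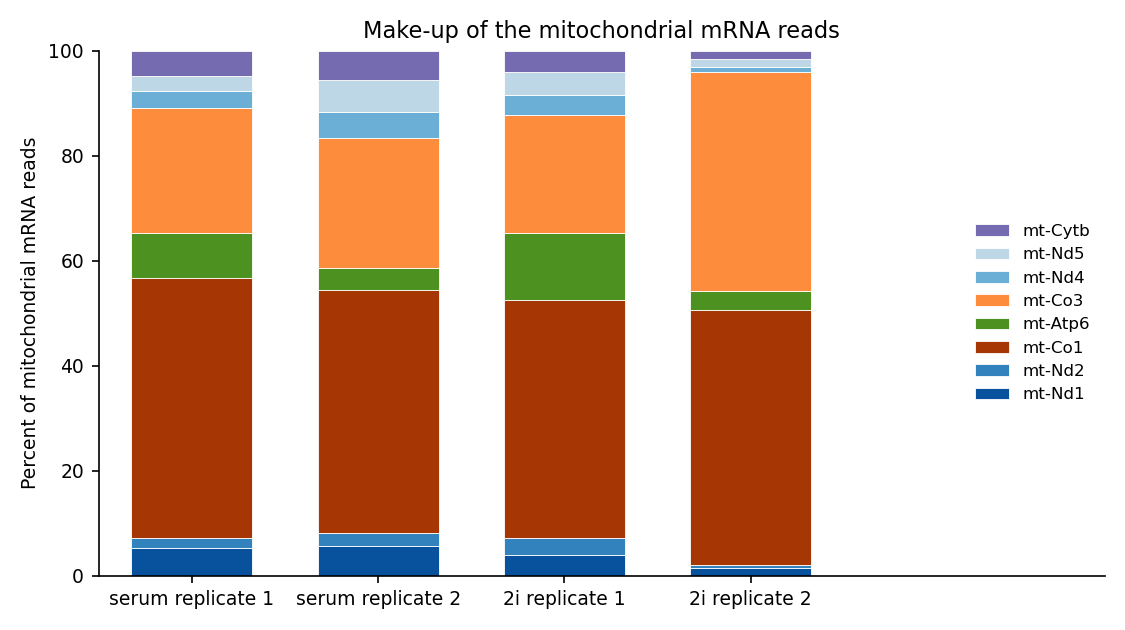
Stacked bars of the percent of mitochondrial mRNA reads from each of the 8 mRNAs, 1 bar per library. The orange part (mt-Co3) grows to 41.7% in 2i replicate 2 from 22.5% to 24.9% elsewhere, and the blue parts (complex I) shrink to 4.40% from 13.3% to 19.0%.

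Per kilobase of gene, the order of levels was the same at the top in 3 libraries. mt-Rnr2 was highest and mt-Rnr1 second in both serum libraries and in 2i replicate 1, followed by mt-Co1 and mt-Co3. mt-Rnr2 stood at 508899 and 420026 normalized counts per kilobase in serum and 655344 in 2i replicate 1. mt-Co1 stood at 60904 and 58809 in serum and 46732 in 2i replicate 1, and mt-Co3 at 58061, 62042 and 45548, so that these neighbours changed places between libraries and did not differ beyond their spread. mt-Atp6 and mt-Nd1 came next, and they were level in serum replicate 2 at 11664 and 11688. The complex I mRNAs mt-Nd2, mt-Nd4 and mt-Nd5 held the lowest places in varying order, between 3149 and 7124. In 2i replicate 2, mt-Co3 led with 87113, mt-Co1 followed with 51501, and mt-Rnr2 (8245) came after mt-Atp6 (8605).

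None of the 10 transcripts differed between serum and 2i ESCs at an adjusted p under 0.05. The test was limma on log2(normalized count + 1) over 13005 genes with Benjamini-Hochberg adjustment, and 0 of 10 also had an unadjusted p under 0.05, against 5.97% of all genes tested (2.97% with a 2-fold change and higher in serum). That count was 2 with quantile normalization, 6 without 2i replicate 1 and 1 by DESeq2. In this test 2 genes of the whole table passed the threshold together with a 2-fold change (0.0154%), both higher in 2i. DESeq2 on the whole reads called 251 genes (1.93%) and edgeR called 0, and neither called any of the 10. The log2 fold change, serum over 2i, was 2.87 (SE 2.41) for mt-Rnr1 and 2.65 (SE 2.08) for mt-Rnr2, with limma adjusted p values of 0.778 and 0.772. For mt-Rnr1 the direction turned with the test, at -0.28 by edgeR and -0.26 by DESeq2, and for mt-Rnr2 the values by these tools were 0.43 and 0.44. The largest values among the mRNAs were 1.44 (SE 0.60, limma adjusted p = 0.753, unadjusted p = 0.0521) for mt-Nd1, 1.29 for mt-Nd4 and 1.27 for mt-Cytb. The smallest were 0.06 for mt-Atp6 and -0.07 for mt-Co3.

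The estimates leaned to one side without passing the test. The log2 fold change was above 0 for 9 of 10 transcripts, against 50.3% of all genes tested, and the median of the 8 mRNAs was 0.99, against 0.0047 over all genes tested. Both serum libraries were above both 2i libraries for 3 of 10 (mt-Nd1, mt-Co1 and mt-Cytb), near the background of 20.5%, and below them for 0 of 10, with a background of 19.4%. As a share of all reads, mt-Nd1 and mt-Cytb were still without overlap, but mt-Co1 was not. These values depended on 2i replicate 2: without it the mean of the rRNAs was -0.86 and the median of the mRNAs 0.34, and without 2i replicate 1 they were 6.39 and 1.87. The count above 0 was 6 of 10 without 2i replicate 2, and 7 of 10 by edgeR and by DESeq2. On the linear scale, mt-Rnr1 and mt-Atp6 had a higher mean in 2i (255715 against 220118, and 13052 against 12096). For mt-Rnr1, serum over 2i replicate 1 gave -1.29 and -1.14 on the log2 scale, and serum over 2i replicate 2 gave 6.89 and 7.04. For mt-Nd1, mt-Co1 and mt-Cytb all 4 library pairs were above 0, at 0.66 to 2.22, 0.19 to 0.38 and 0.50 to 2.05. The direction for mt-Atp6, mt-Co3, mt-Co1, mt-Nd2 and the rRNAs turned under at least 1 alternative, scaling included for mt-Atp6 and mt-Co3.

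**Figure D5:**
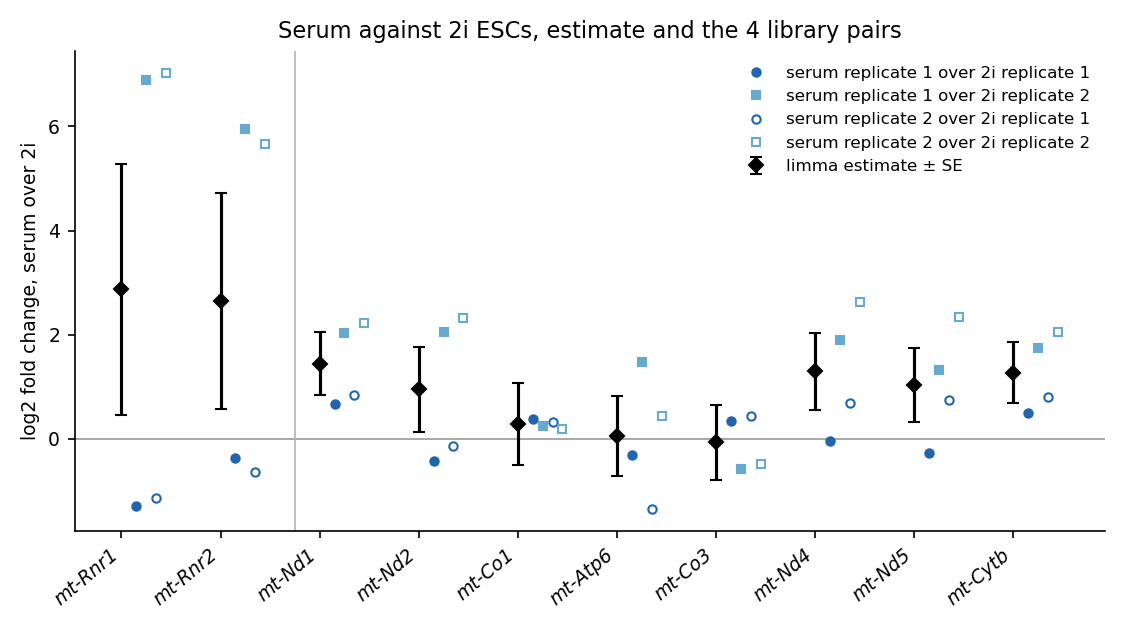
log2 fold change, serum over 2i, of each transcript: black diamonds with bars are the limma estimate ± SE, and the coloured points are the 4 pairs of a serum with a 2i library. For both rRNAs the pairs with 2i replicate 1 (dark blue circles) lie below 0 and those with 2i replicate 2 (light blue squares) lie above 5, on either side of the estimate.

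The other 9 rows of the mitochondrial chromosome were mostly short or overlap a neighbour. mt-Co2, the copper-carrying subunit of complex IV, had 28748 and 18571 in serum against 21604 and 9652 in 2i. Unlike mt-Co1 and mt-Co3 it was 2.24-fold lower in 2i replicate 2 than in 2i replicate 1. All of its 43-base words are in the chromosome 1 copy, and the part of shared reads was not tested. mt-Nd3 had 4936 and 7215 in serum against 5348 and 2916 in 2i. mt-Atp8, which overlaps the start of mt-Atp6, had 1603 and 2021 in serum against 2681 and 869 in 2i. mt-Nd6, the complex I gene on the minus strand, had 1051 and 3105 in serum against 3594 and 301 in 2i. The kit named for the libraries does not mark strand, so reads of mt-Nd6 and of transcripts from the opposite strand cannot be told apart, and its end overlaps mt-Nd5. mt-Nd4l, whose end overlaps mt-Nd4, was at 926 and 10.7 in serum against 1216 and 0 in 2i. The 4 transfer RNA rows summed to 217 and 40.8 in serum against 460 and 11.6 in 2i. Over these rows, 2i replicate 2 was the lowest library or shared a value of 0 for all but mt-Tm.

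The nuclear copy of mt-Atp6 is annotated as the gene Gm10925 at chr1:24620814-24621627, on the minus strand. It was at 0 in serum replicate 1 and 2i replicate 1, at 4302 in serum replicate 2 and at 1226 in 2i replicate 2. Those were the libraries with the lower mt-Atp6 values. Summed with Gm10925, mt-Atp6 stood at 16248 and 12245 in serum against 20244 and 7086 in 2i, and its log2 fold change was 0.24 in place of 0.06 (limma adjusted p = 0.941). Gm13340, in the copy on chromosome 2, had 33.0 and 22.4 in serum against 9.34 and 12.6 in 2i. Reads of a copy and of the mitochondrial gene cannot be told apart where the letters are the same.

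Nuclear genes for mitochondrial RNA were read from the same test, and 0 genes of any of the following lists were called, beside the 0.0154% of all genes. Of 16 genes for mitochondrial transcription and DNA upkeep, 9 were higher and 7 lower in serum, with a median log2 fold change of 0.12. The gene with the smallest p was Tfb2m, a transcription factor that opens the mitochondrial promoter with the polymerase Polrmt. It had 385 and 605 in serum against 68.5 and 160 in 2i, a log2 fold change of 2.19 (SE 0.61, limma unadjusted p = 0.0104, adjusted p = 0.753). Peo1, the mitochondrial DNA helicase Twinkle, had 695 and 963 in serum against 345 and 406 in 2i, a log2 fold change of 1.13 (SE 0.45, limma adjusted p = 0.753). For both, the groups did not overlap, and neither passed the adjusted threshold. Polrmt had 105.1 and 335 in serum against 326 and 431 in 2i. Tfam, which packs mitochondrial DNA and helps start transcription, had 1254 and 2175 in serum against 641 and 1365 in 2i. The groups overlapped for Polrmt and for Tfam.

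Of 14 genes for stability and decay of mitochondrial RNA, 12 had a log2 fold change above 0, with a list median of 0.50, and 8 had both serum libraries above both 2i libraries (background 20.5%). Lrpprc, which protects mitochondrial mRNAs and aids their polyadenylation, had 2870 and 3761 in serum against 1549 and 2612 in 2i. Its log2 fold change was 0.71 (SE 0.49, limma adjusted p = 0.759). Mtpap, the mitochondrial poly(A) polymerase, had 497 and 649 in serum against 394 and 472 in 2i. Fastkd5, an RNA-binding protein needed for release of some mitochondrial mRNAs, had 347 and 526 in serum against 161 and 267 in 2i. Pnpt1 and Supv3l1, which together degrade mitochondrial RNA, had groups that overlapped. Pnpt1 had 1313 and 1882 in serum against 923 and 1511 in 2i, and Supv3l1 had 932 and 871 in serum against 461 and 926 in 2i. For both, 2i replicate 1 was the lowest library and 2i replicate 2 was at the level of serum. Without 2i replicate 2 the median of the 14 genes was 0.84, and without 2i replicate 1 it was 0.36. With GC content and length correction it was 0.35.

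Of 8 genes that cut or modify mitochondrial transfer RNAs, 3 were higher and 5 lower in serum, with a median of -0.15. Elac2, which cuts transfer RNA ends, had 1043 and 1393 in serum against 766 and 1918 in 2i. Of 12 genes for rRNA modification and ribosome assembly in mitochondria, 5 were higher and 7 lower, with a median of -0.11. Mrm1, a methyltransferase of the 16S rRNA, had 458 and 254 in serum against 215 and 437 in 2i. Of 75 mitochondrial ribosomal protein genes, 42 were higher and 33 lower in serum, with a median of 0.15. The median of each of these lists turned with the libraries compared. With serum replicate 1 over 2i replicate 1 it was 0.40 (8 genes), 0.34 (12 genes) and 0.44 (75 genes). With serum replicate 2 over 2i replicate 2 it was -0.45, -0.39 and -0.25. The ribosomal protein genes had a summed count of 57505 and 57621 in serum, 44855 in 2i replicate 1 and 65490 in 2i replicate 2. The library with the least mitochondrial rRNA thus had the highest sum of ribosomal protein mRNAs. The same library also had the highest sum of the 8 genes that cut or modify transfer RNAs (6915) and of the nuclear subunits below (259272). For the transcription, stability and rRNA modification lists another library was highest.

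The nuclear subunits of the complexes that the mitochondrial mRNAs contribute to leaned the other way. Of 75 genes tested for complexes I, III, IV and V, 62 had a log2 fold change below 0, with a median of -0.46. Of these genes 0 were called by limma, 1 by DESeq2 (background 1.93%), and 1, Cox7a1, was lower in serum with a 2-fold change at an unadjusted p under 0.05 (background 3.0%). The lean rested mainly on 2i replicate 2: without that library 41 of 75 were below 0, with a median of -0.06, and without 2i replicate 1 the median was -0.76. The summed count was 157653 and 148292 in serum, 158215 in 2i replicate 1 and 259272 in 2i replicate 2. The complex IV genes summed to 28395 and 29390 in serum and to more in either 2i library, 33240 in 2i replicate 1 and 51066 in 2i replicate 2. By complex, the medians were -0.51 over 37 complex I genes, -0.21 over 9 complex III genes, -0.69 over 14 complex IV genes and -0.39 over 15 complex V genes.

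The genes whose pattern over the 4 libraries was most like that of the transcripts were found among the 8888 genes averaging 200 or more normalized counts over the libraries, by the root mean square difference of centred log2 values. For the mean of the 8 mRNAs these were Tmtc3 (0.035), Mgat4a (0.050) and Hif1an (0.050). Tmtc3, for example, had 956 and 1129 in serum against 887 and 382 in 2i. The mRNAs themselves lay up to 0.858 from their own mean, so that their mean profile is a summary of unlike members. For the rRNAs the nearest were Gm10076 (0.871), Gm10241 (0.885) and Gm7334 (1.06), all farther away than either rRNA was from the mean of both (0.342 at most). Gm10076 had 288 and 1023 in serum against 541 and 9.70 in 2i, and the other two were at 0 in 2i replicate 2. These likenesses are descriptions over 4 libraries.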

How the data were processed

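Deposited values are a signal: read counts per gene that the authors estimated with MMSeq from 43-base single-end reads aligned to mm9 with Bowtie, kept at 50 or more reads in either condition, and divided by a DESeq2 size factor per library. All values were whole multiples of 1 step per library (100% within 0.01), which gave whole reads per gene. Reads fitting several transcripts are divided by estimation, so values of near-identical copies are uncertain.

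Genes with a mean of at least 50 in either group entered limma 3.58.1 (in R 4.3.3), fitted to log2(value + 1) with a variance trend. The added 1 understates changes of low genes. Calls needed a Benjamini-Hochberg adjusted p under 0.05 and a 2-fold change. Alternatives included edgeR 4.0.16 and DESeq2 1.42.0 on whole reads. The scripts were tested on simulated data. Gene positions came from GENCODE vM1 and sequences from the matching mm9 genome. It held 14462 of 14533 genes. All distinct 43-base words of each mitochondrial gene were searched on both nuclear strands.

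Members and lists were chosen with earlier results of these data known. Named genes are the members, other mitochondrial rows, list genes, nuclear copies and the 3 nearest profiles each for mRNAs and rRNAs. Nuclear subunits were chosen by the start of their symbols. Cox4nb, Atp5s and Atp5sl, which are no subunits, were left out after values had been seen. By symbol alone, Ndufa4 and Ndufa4l2 stayed with complex I and Cox7a2l with complex IV. A list of 5 abundant noncoding RNAs matched 0 rows by symbol. The 2 libraries of a group are separate samples whose biological independence rests on the series description. The limma p-values weigh the spread between these libraries together with the spread of other genes of similar level.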

Additional observations from a re-analysis of the deposited data

How the results depend on the processing

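Over 19 alternatives to the limma test, and 1 more for mt-Atp6, 0 of the 10 transcripts were called. Called genes in the whole table numbered 2, and 3 with a pseudocount of 5, 4 with a mean of at least 200, 13 with scaling to total reads, 1 with GC content and length correction, 1 by limma without trend, 251 by DESeq2 and 0 by edgeR (787 at an unadjusted p under 0.05). Leaving out 1 library each gave 0 to 0 (169 to 1530 unadjusted). With the replicate number as a block the count was 203 (1425 unadjusted, with 5 of the 10 transcripts among them), and 10 with GC content and length correction as well. The numbers are not known to pair the samples (correlation of replicate differences across genes 0.480, 2 pairs). Leaving out libraries gave 0.34 to 1.87 for the mRNA median, -0.86 to 6.39 for the rRNA mean and -0.98 to 5.77 for the log2 ratio. By edgeR and DESeq2 the rRNA mean was 0.07 and 0.09. Over single transcripts, 174 of 191 recomputed values kept their sign. Of the rest, mt-Atp6 was -0.060 with upper quartile scaling, -0.0075 with scaling to total reads, -0.33 with GC content and length correction with or without the block, -0.15 by edgeR, -0.14 by DESeq2, and -0.83 to 0.95 without 1 library. mt-Co1 was -0.055 with GC content and length correction with or without the block. mt-Co3 was 0.29 with quantile normalization and -0.54 to 0.40 without 1 library. mt-Rnr1 was -0.28 by edgeR, -0.26 by DESeq2 and -1.21 to 6.96 without 1 library. The ranges without 1 library were -0.50 to 5.81 for mt-Rnr2 and -0.29 to 2.19 for mt-Nd2. In each of these ranges but that of mt-Co3 the lowest value was without 2i replicate 2, which for mt-Co3 gave the highest. The causes were not tested. The median of all genes moved by over 0.1 with upper quartile scaling (-0.12) and with a mean of at least 200 (0.12). With 2 libraries per group, replicate spread and not depth limits these comparisons: no Wilson interval of a share was wider than 0.249 percentage points either side.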
